A study of Punica granatum with 8 samples.

Results

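The genes with the steadiest transcript level in pomegranate hairy roots were chosen by their measured spread over all 8 libraries of the series. Hairy roots are transgenic roots induced by Agrobacterium rhizogenes, and all the roots came from pomegranate PG116-17, carried a GFP marker and stood for 3 months in pots in a greenhouse. There were 3 libraries of roots overexpressing PgMyb308-like, a subgroup S4 R2R3 Myb, from a constitutive viral promoter, 2 libraries labelled line 1712, whose genotype the labels give as overexpression of PgMyb308, and 3 libraries of roots with an empty vector (EV). Each PgMyb308-like and EV line came from its own transformation, so the spread between libraries holds differences between lines and between pots as well as technical ones.

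The measure of spread was the coefficient of variation (CV), the sample SD divided by the mean, of the normalized counts (raw counts divided by 1 size factor per library). Of the 18831 genes listed, 2320 had a mean of at least 200 normalized counts. The 100 most abundant of them, all with a mean of 1802 or more, were left out, and of the remaining 2220 eligible genes the 100 with the smallest CV were kept. These are called the stable genes below. The small CV of these 100 is therefore how they were selected and not a result, and levels and CVs are given for them as a description without a test.

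A gene of steady level is what quantitative PCR needs as a reference. The amount of RNA and the efficiency of cDNA synthesis differ between extracts, and dividing by the level of a reference gene removes these differences only if that gene does not itself follow the treatment or the line. Reference genes in plants are commonly taken from basic cell functions, such as the cytoskeleton, protein synthesis and protein turnover, and their steadiness has to be measured anew in each tissue. A ribosomal protein S gene served as the reference in the quantitative PCR of the study. It was not matched to an identifier here, because the gene table and the annotation give locus identifiers with no product names, and for the same reason the tissue label was not checked against marker genes. No function is therefore given to any of the stable genes, and most of them are described by their position in the assembly ASM765513v2.

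Depth ran from 1263321 counts in PgMyb308-like replicate 1 to 3976951 in line 1712 replicate 1. The stable genes together took between 2.07% and 2.25% of the counts of a library. The least covered of them had 105 counts in the shallowest library, and the median stable gene had 230.5 counts there and 718.5 in the deepest. Within a group, squared count differences of a library pair were 8.34 to 34.7 times those of counting alone. This ratio is the chi-square over its degrees of freedom. No library was thus a copy of another. In whole roots, fewer cells of a type and less RNA per cell cannot be told apart.

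The CVs of the stable genes ran from 4.47% to 10.4%, with a median of 9.05%, whereas the median over all eligible genes was 21.6%. Among the eligible genes, 275 had a CV over 50%, and the largest was 217%. The highest of the 8 values was 1.14 to 1.42 times the lowest in a stable gene, with a median of 1.30, against a median of 1.89 over the eligible genes. These narrow ranges follow from the choice of genes with a small spread over the same 8 libraries. No steadiness across constructs is read from them.

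**Figure D1:**
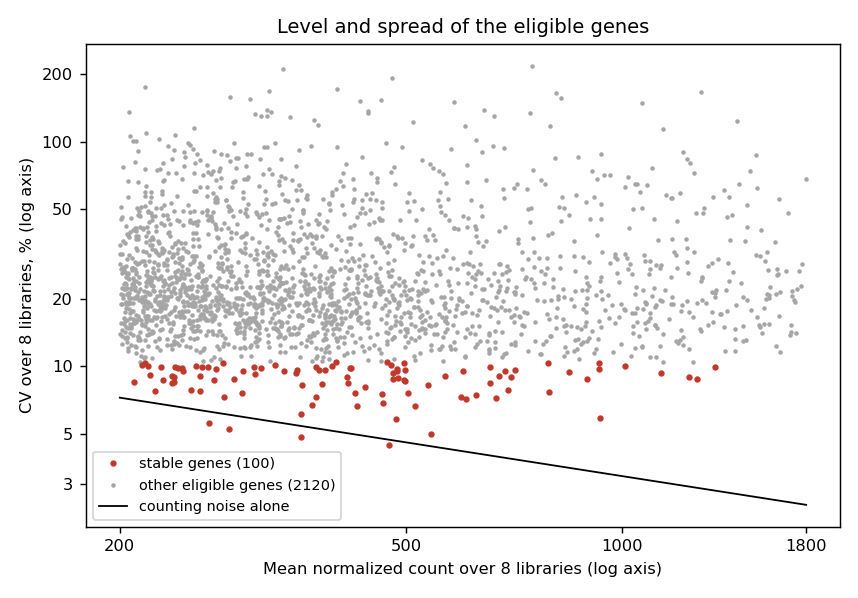
Each point is 1 of the 2220 eligible genes, with its mean normalized count on the x axis and its CV over 8 libraries, in percent, on the y axis (both log axes). The 100 stable genes (red) lie at a CV of 10.43% or less, the line gives the CV that counting noise alone would produce, and 4 stable genes lie at or below it.

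Part of this remaining spread was counting noise. From the depth of the libraries alone, a gene of the same mean would have a CV of 2.80% to 7.09%, and this part made up a median of 34.6% of the variance of a stable gene, against 5.63% of that of an eligible gene. In 4 stable genes the CV was no larger than counting noise. With the counting part taken off, the median CV of the stable genes was 7.32%. As these genes were chosen for a small CV over the same libraries, the choice lowers this value and raises the counting share. No absence of spread between lines is therefore read from these values. The stable genes had means of 209 to 1345 normalized counts, and none lay in the uppermost part of the eligible range. They made up 3.62% of the eligible genes with a mean of 200 to 300, 6.81% of those between 400 and 600, 6.38% of those between 600 and 1000 and 2.42% of those of 1000 or more.

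The gene with the smallest CV was LOC116192919, on chromosome 1 from 55012988 to 55014312. It stood at 444, 473 and 480.2 normalized counts in the PgMyb308-like libraries, at 481 and 480.1 in the line 1712 libraries and at 509, 445 and 479 in the EV libraries. The groups overlapped, and the EV libraries alone covered nearly the whole range. Its mean was 474 ± 21.2 (SD, n = 8) and its CV 4.47%, against 4.71% expected from counting alone. With 8 libraries this CV has a 95% interval of 2.95% to 9.09% (from the chi-square distribution with 7 degrees of freedom), and it takes no account of the gene having been picked as the lowest.

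LOC116196483, on chromosome 2 from 201087 to 205974, stood at 358, 371 and 349.6 normalized counts in the PgMyb308-like libraries, at 328 and 373 in line 1712 and at 378, 366 and 341 in EV. Its lowest and second highest values were thus the 2 libraries of line 1712, and its CV was 4.82%. This CV was 7.28% when the counts were scaled by library totals and 7.84% when all libraries were thinned to the counts of the shallowest. Thinning was a single random draw, and fewer counts carry more counting noise.

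LOC116212665, on chromosome 7 from 19502020 to 19504139, stood at 502, 571 and 506 normalized counts in the PgMyb308-like libraries, at 569 and 549.9 in line 1712 and at 567, 537 and 540.2 in EV. PgMyb308-like replicate 2 was the highest library and PgMyb308-like replicates 1 and 3 were the lowest, so that both ends of its range lay within 1 group. Its CV was 4.99%, 8.08% when scaled by library totals and 3.43% when the libraries were thinned.

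LOC116189035, on chromosome 8 from 23837911 to 23839398, was the first in the order whose groups did not overlap. It stood at 264, 285 and 279 normalized counts in the PgMyb308-like libraries and at 271 and 272 in line 1712, all below the 304, 292 and 302 of the EV libraries. The group means were 276 ± 10.99 (SD, n = 3) with PgMyb308-like overexpression and 299.5 ± 6.44 (SD, n = 3) in EV, a log2 fold change of -0.13 with a 95% interval of -0.57 to 0.32 (edgeR quasi-likelihood test, adjusted p = 0.916). Its CV was 5.26%, and 7.93% when scaled by library totals.

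LOC116189010, also on chromosome 8, from 14190570 to 14194177, stood at 275, 249.8 and 279 normalized counts in the PgMyb308-like libraries, at 269 and 289 in line 1712 and at 256, 263 and 246 in EV. Both line 1712 libraries lay above the EV libraries, and the PgMyb308-like libraries lay on both sides of 2 of them. Its CV of 5.61% was below the 6.29% of counting noise, and came to 9.32% when the libraries were thinned.

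LOC116213543, on chromosome 1 from 4586142 to 4588123, stood at 429, 519 and 475 normalized counts in the PgMyb308-like libraries, at 517 and 481 in line 1712 and at 478, 491 and 487 in EV. The 3 EV libraries differed least (485 ± 6.68, SD, n = 3) and the PgMyb308-like libraries most (474 ± 44.98, SD, n = 3). Without PgMyb308-like replicate 1, its lowest library, its CV of 5.80% became 3.72%, and with scaling by library totals 8.94%. The next annotated gene lies 16 bp away, and reads counted on an extended 3′ end may belong to such a neighbour.

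The genes at ranks 7 to 10 lie on chromosomes 8, 5, 4 and 6. The most abundant of these, from 781549 to 784760 on chromosome 8, stood at 966, 879 and 967 normalized counts in the PgMyb308-like libraries, at 934 and 931 in line 1712 and at 1019, 849.9 and 893 in EV. Its highest and lowest values both came from EV lines, and since counting noise alone would give it a CV of 3.36%, most of its CV of 5.88% lay beyond counting. The gene on chromosome 5 from 30953468 to 30957075 stood at 395, 356 and 355 normalized counts in the PgMyb308-like libraries, at 328 and 346 in line 1712 and at 368, 335 and 376 in EV. Line 1712 replicate 1 was its lowest library and PgMyb308-like replicate 1 its highest, and its CV was 6.16%. The gene on chromosome 6 from 22116886 to 22121781 stood at 424, 434 and 405 in the PgMyb308-like libraries, at 449.6 and 396 in line 1712 and at 452, 471 and 393 in EV. Its EV libraries held both its highest and its lowest value, and its CV was 6.68%.

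At rank 9, the gene on chromosome 4 from 1010599 to 1015927 stood at 562, 567 and 521 normalized counts in the PgMyb308-like libraries, above every other library. Line 1712 had 468 and 499.6 and EV had 493, 495 and 513. The difference between PgMyb308-like overexpression and EV was 0.13 on the log2 scale with a 95% interval of -0.30 to 0.56, and edgeR gave it an adjusted p of 0.911.

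**Figure D2:**
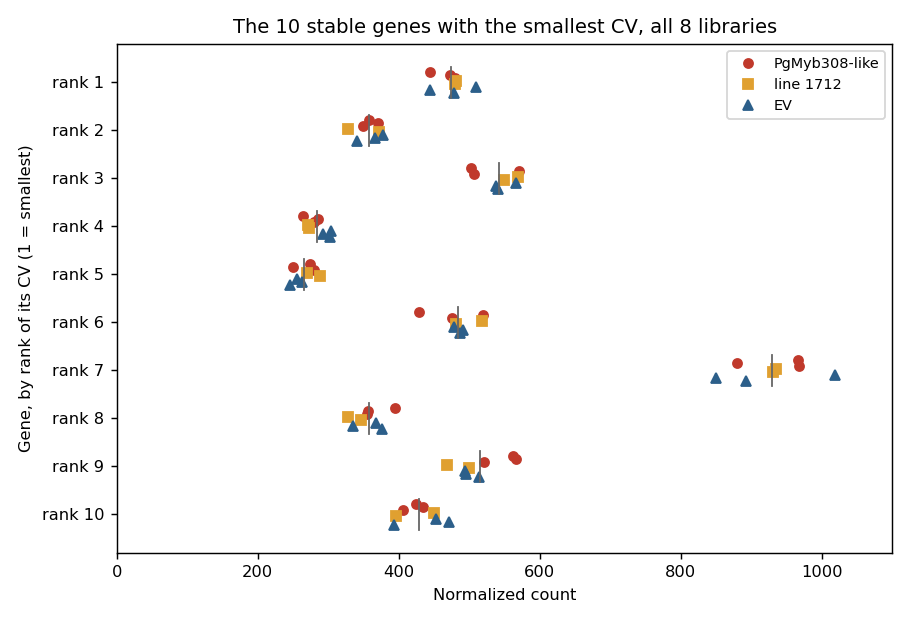
Normalized counts of the 10 stable genes with the smallest CV, 1 row per gene, with a point for each of the 8 libraries and a grey bar at the mean. The PgMyb308-like (red), line 1712 (yellow) and EV (blue) points of a gene lie within a factor of 1.21 of each other, and the means run from 266 to 929.8.

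The order of these genes is not fixed by 8 libraries. The 95% interval of the CV of each of the 100 stable genes began below 9.09%, the upper end of that of the first, so that no place in the order stands apart from its neighbours. At the limit, the last 3 stable genes had CVs of 10.39%, 10.41% and 10.43%, and the next 3 genes, which were left out, had 10.47%, 10.48% and 10.49%. The last one inside, on chromosome 7 from 21655668 to 21657742, ran from 396 to 534 normalized counts with a median of 481. The first one outside, on chromosome 3 from 13540926 to 13544428, ran from 164 to 233 with a median of 218. The other stable genes at the limit lie on chromosome 1 from 49405291 to 49407339 (648 to 914, median 792) and on chromosome 7 from 28221085 to 28224874 (341 to 483, median 397). The other genes left out lie on chromosome 1, from 5876635 to 5879661 (969 to 1294, median 1173) and from 43957146 to 43962578 (1042 to 1422, median 1279.9). The 6 CVs on both sides of the limit thus lie within 0.1 percentage points of each other.

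The extremes of level among the stable genes were LOC116189562 and LOC116195122. LOC116189562, on chromosome 8 from 2141617 to 2144873, stood at 1533, 1263 and 1411 normalized counts in the PgMyb308-like libraries, at 1499 and 1227 in line 1712 and at 1361, 1327 and 1143 in EV. The groups overlapped, and its CV of 9.94% was more than 3 times the 2.80% of counting noise. LOC116195122, on chromosome 2 from 32529350 to 32534300, stood at 235, 200.2 and 218 in the PgMyb308-like libraries, at 207 and 229 in line 1712 and at 212, 187 and 187 in EV. Counting noise alone would give this gene a CV of 7.09%, and its CV was 8.47%.

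The question put to these genes by the design was whether they differed between hairy roots overexpressing a Myb and EV roots. Of the 100 stable genes, 0 were called different between PgMyb308-like overexpression and EV (edgeR quasi-likelihood test with Benjamini-Hochberg adjustment over all 15957 genes tested, a call being an adjusted p under 0.05 with a log2 fold change beyond 1 either way), where 0.0376% of all genes were called. At an unadjusted p under 0.05 there were 0 of the 100, against 8.27% of all genes, and DESeq2 also called 0, against 1.25% of all genes, and gave 0 at an unadjusted p under 0.05. Between line 1712 and EV the counts were again 0 called by edgeR, 0 at an unadjusted p under 0.05 and 0 called by DESeq2, with 0.00627%, 4.26% and 0.495% of all genes. Since the list was chosen for a small spread over these same libraries, nothing is read from these zeros.

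The log2 fold changes and their intervals are likewise a description, as a small spread over all 8 libraries leaves room only for small differences between groups. The log2 fold changes of the stable genes ran from -0.29 to 0.21 for PgMyb308-like overexpression against EV (median -0.015, 43 of 100 above 0) and from -0.20 to 0.22 for line 1712 against EV (median -0.0050, 48 of 100 above 0). The median over all genes tested was 0.0094 and 0.0049. All 100 had a 95% interval that lay within 1 log2 unit of 0 in both comparisons, and the bound farthest from 0 was 0.74 and 0.75 log2 units. Among all genes, 27.9% had such an interval for PgMyb308-like overexpression and 23.8% for line 1712, and among the eligible genes 63.2% and 64.4%. The EV libraries are shared by both comparisons. The standard error of a stable gene had a median of 0.21 log2 units for PgMyb308-like overexpression and 0.23 for line 1712, because edgeR draws the spread of each gene towards that of genes of similar abundance. The intervals are therefore wider than the values of these genes alone would give.

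In 13 of the 100 stable genes the PgMyb308-like and EV libraries did not overlap, 6 with PgMyb308-like higher and 7 lower. Over all genes tested this held for 13.1%, and over the eligible genes for 13.0%. The share among the stable genes was thus close to that of any gene. Between line 1712 and EV, 14 of the stable genes did not overlap, 6 higher and 8 lower in line 1712. This held for 20.1% of all genes and for 16.7% of the eligible genes. The variance of a stable gene lay to a median of 19.5% between the 3 groups, and that of the other eligible genes to 25.7%. Groups this small hold part of the variance between them however the libraries are assigned. That part was not computed, so no effect of the constructs is read from these shares.

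A pair of these genes, picked after their values were seen, gives the scale. The gene at rank 20, on chromosome 2 from 31879100 to 31880922, stood at 540.1, 530.5 and 524 normalized counts in the PgMyb308-like libraries and at 544 and 514 in line 1712, above the 478, 455 and 448 of EV. The log2 fold change against EV was 0.20 (95% interval -0.23 to 0.63, adjusted p = 0.844 from edgeR) for PgMyb308-like and 0.21 (-0.26 to 0.69) for line 1712. This gene overlaps the span of another annotated gene by 47 bp. The gene at rank 86, on chromosome 8 from 23474029 to 23477100, was lower with PgMyb308-like overexpression (251, 234 and 245) and in line 1712 (263 and 244) than in EV (291, 306 and 288). Its log2 fold change was -0.29 for PgMyb308-like (95% interval -0.73 to 0.16, adjusted p = 0.764 from edgeR) and -0.20 for line 1712 (-0.70 to 0.29).

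The libraries differed in how far the stable genes as a whole lay from their means. The median log2 deviation of the stable genes was 0.017, -0.0096 and -0.020 in the PgMyb308-like libraries, 0.015 and -0.042 in line 1712 and 0.027, 0.016 and -0.043 in EV. No group lay on 1 side of 0 in all its libraries, and the SD of the deviations within a library was 0.100 to 0.127 log2 units. The other eligible genes had medians of 0.011, -0.13 and -0.075 in the PgMyb308-like libraries, 0.0010 and -0.058 in line 1712 and 0.073, 0.035 and -0.14 in EV. These lay farther from 0 than those of the stable genes in 6 libraries and nearer in PgMyb308-like replicate 1 and line 1712 replicate 1. Size factors recomputed from the stable genes alone came to between 97.4% and 102% of the deposited ones. Both this and the small deviations follow from the choice of genes with a small spread after division by the deposited factors, and nothing is read from them.

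**Figure D3:**
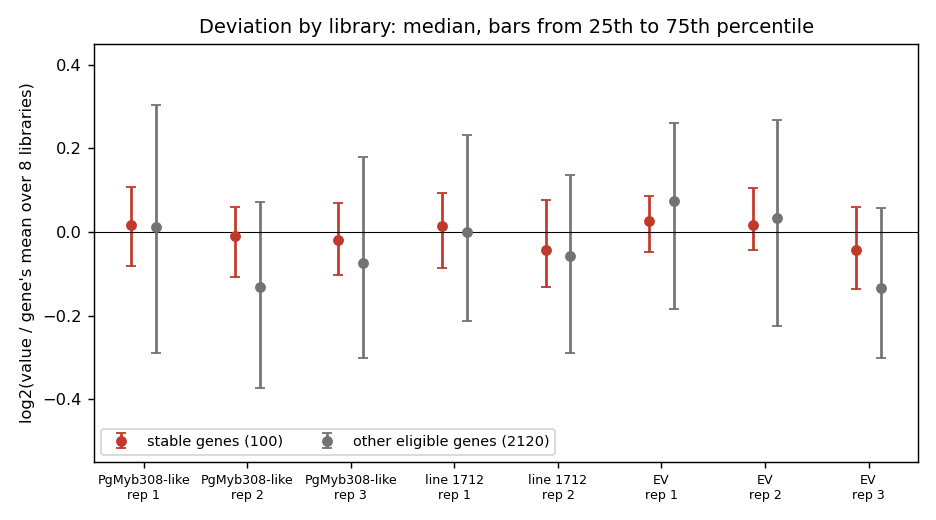
Deviation of each gene from its own mean over 8 libraries, in log2 units, for the 100 stable genes (red) and the other 2120 eligible genes (grey), by library. Points are medians and bars run from the 25th to the 75th percentile. The medians of the stable genes lie between -0.043 and 0.027, and those of the other genes between -0.14 and 0.073.

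No single library gave most of the extremes of the stable genes. The highest value of a stable gene fell in EV replicate 2 for 18 genes and in EV replicate 1 for 16, and in PgMyb308-like replicate 3 and EV replicate 3 for 9 and 8. The lowest value fell in EV replicate 3 for 20 genes and in PgMyb308-like replicate 2 for 18, and in EV replicate 1 for 4. The ratio of 1 stable gene to another, the measure used to rank reference genes by pairs, had an average SD over libraries of 0.14 to 0.20 log2 units, with a median of 0.17. Only pairs of stable genes were taken, over the same libraries as the choice. Small values follow from that choice, and nothing is read from them.

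A library that took no part in the choice gives a measure of steadiness that the choice did not fix. The same rule was therefore applied to 7 libraries at a time, and the 100 genes it gave were read in the remaining one, as the log2 ratio of the value there to the mean of the other 7. Over the 8 libraries and 800 such readings the median size of this deviation was 0.17 log2 units, or 12.3%, for the chosen genes, against 0.26 log2 units, or 19.5%, for all eligible genes. The chosen genes deviated less in 8 of 8 libraries. Deviations over 0.5 log2 units were found in 5.38% of the readings of chosen genes (43 of 800) and in 23.4% of those of eligible genes. The 8 readings share libraries and the deposited size factors, which were computed over all 8, so they are given without a test.

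By library, the median deviation of the chosen genes was 0.20, 0.16 and 0.16 log2 units in PgMyb308-like replicates 1, 2 and 3, 0.14 and 0.18 in line 1712 and 0.13, 0.22 and 0.18 in EV. All eligible genes had 0.31, 0.25 and 0.28 in the PgMyb308-like libraries, 0.24 and 0.22 in line 1712 and 0.25, 0.28 and 0.23 in EV. The spread in the left-out library was larger than in the libraries used for the choice, where the same genes deviated by a median of 0.076 to 0.086. In those libraries the mean included the library read, which in itself makes the deviation somewhat smaller. Counting noise in the left-out library would give 0.035 to 0.062, less than what was measured in every library. PgMyb308-like replicate 1, the library with the fewest counts, had the most chosen genes off by more than 0.5, namely 11 of 100, and EV replicate 3 had the fewest, 2 of 100. Line 1712 replicate 2, with the next fewest counts, had 4 of 100, and EV replicate 2 had 8 of 100.

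**Figure D4:**
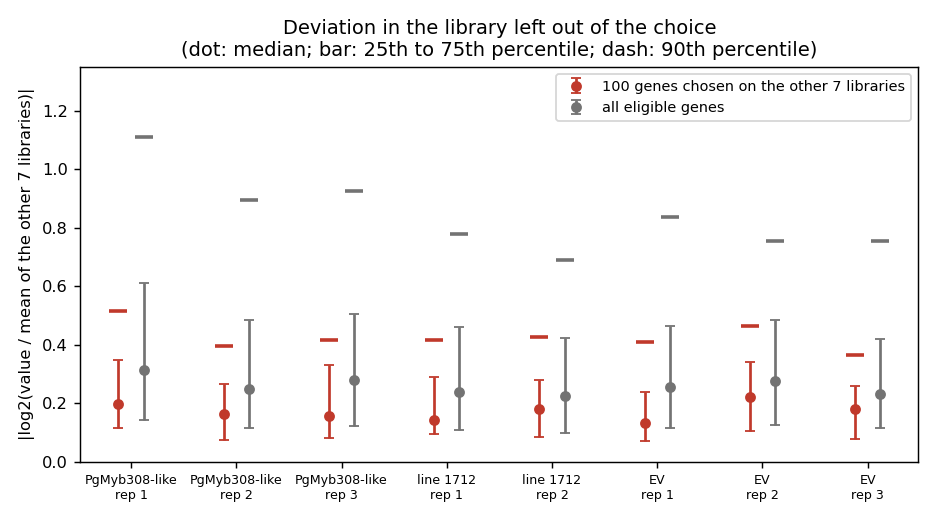
Absolute log2 deviation in the library left out, for the 100 genes chosen on the other 7 libraries (red) and all eligible genes (grey). Points are medians, bars run from the 25th to the 75th percentile and dashes mark the 90th percentile. In each of the 8 libraries the red median, between 0.13 and 0.22, lies below the grey one, between 0.22 and 0.31.

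A mean over a few genes, as used to normalize quantitative PCR, could still be off in a library not used to choose them. The mean of the 3 genes with the smallest CV on 7 libraries was off by up to 0.31 log2 units in the library left out (-0.31 in line 1712 replicate 2), the mean of the first 10 by up to 0.30 (-0.30 in PgMyb308-like replicate 3) and the mean of all 100 by up to 0.11 (-0.11 in EV replicate 3). In the other 7 libraries the mean of the first 3 was off by 0.013 to 0.14 in size.

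Genes chosen without line 1712 also deviated less in it than the eligible genes did. The rule applied to the 6 PgMyb308-like and EV libraries gave a list of which 65 of 100 were among the stable genes. In the line 1712 libraries these 100 genes deviated by a median of 0.16 and 0.15 log2 units from their mean in the other groups, against 0.24 and 0.22 for the eligible genes. Only 2 and 5 of the 100 deviated by more than 0.5, against 21.5% and 17.1% of the eligible genes. These values too are given without a test. The deposited size factors include line 1712, and its 2 libraries may come from 1 line.

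The list itself depended on the libraries and on the rule. It was made again in 18 other ways, and 15 of the 100 stable genes were in all 18 lists, 53 in at least 15 of them, and the least recurrent in 4. All 15 have a mean of 504 or more, as 1 of the lists admits only genes with a mean of at least 500, which only 29 of the stable genes reach. The first 3 of the 15 are the genes at ranks 3, 7 and 9, described above. The next ones, at ranks 13 and 14, lie on chromosome 4 from 39078095 to 39079905, with a mean of 605 normalized counts and a CV of 7.18%, and from 28080811 to 28084225, with a mean of 667 and a CV of 7.22%. The most abundant of the 15, on chromosome 3 from 39446872 to 39449703, had a mean of 1269 and a CV of 8.77%. When each library was left out in turn, 64 to 77 of the stable genes were chosen again, the fewest (64) without PgMyb308-like replicate 1 and the next fewest (66) without EV replicate 2, and 47 were chosen in every one of these 8 lists. The genes at ranks 1 to 10 were each in 17 or 18 of the 18 lists.

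**Figure D5:**
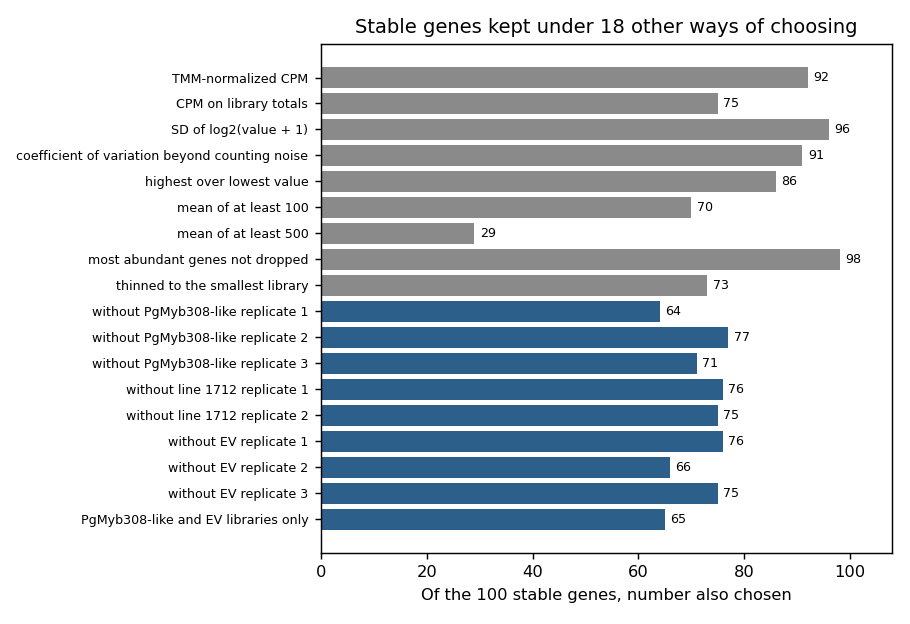
Number of the 100 stable genes that were chosen again under each of 18 other ways of making the list (blue, fewer libraries; grey, another rule or scale). The number runs from 29, when only genes with a mean of at least 500 are admitted, to 98, when the most abundant genes are not left out.

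The annotation gives features that the choice did not use. All 100 stable genes were found in it and all encode proteins, as do 99.5% of the eligible genes. They span 603 to 10334 bp with a median of 3450.5 bp, against a median of 2840.0 bp for the eligible genes and 3062 bp for all listed genes. A single transcript is annotated for 71 of the stable genes and for 78.6% of the eligible ones. They lie on all 8 chromosomes, with 17 on chromosome 8, 15 on chromosome 2, 14 on chromosomes 1 and 4, 12 on chromosome 5, 10 on chromosomes 3 and 7 and 8 on chromosome 6. Chromosome 8 holds 10.9% of the eligible genes, and the other chromosomes took shares of the stable genes within 3 percentage points of their shares of the eligible genes. No stable gene is the next listed gene to another.

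Reads counted on extended 3′ ends can fall to a neighbouring gene. The span of 2 of the stable genes overlaps that of another annotated gene, against 5.32% of the eligible genes, and 46 have a neighbour within 1000 bp, against 48.9%. The part of such reads in the values was not tested.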

How the data were processed

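RNA of 8 pomegranate hairy root libraries was sequenced by TranSeq, which reads the 3′ ends of transcripts. The authors aligned the reads with STAR 2.4.2a, counted reads near the 3′ end of each gene, extended downstream, with htseq-count 0.6.1p1, and deposited raw counts. They also deposited a normalized signal, here called the normalized count, which equals the counts over 1 size factor per library to within rounding (largest gap 0.00724). Samples were grouped by the titles in the sample labels. The stable genes were chosen on the normalized counts, and they, like the comparisons, were set with earlier results of these data known. Genes to describe were the 10 smallest CVs, 3 on each side of the limit, the extremes of level and those most often chosen again. As identifiers are not paired with names, at most 8 are printed. The pathway and marker lists, promoter words and protein patterns planned on product names and sequences were not used here.

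Raw counts were filtered (minimum count 10, minimum total 15), scaled by TMM and tested with edgeR 4.0.16 in R 4.3.3 over 15957 genes, all 8 libraries in 1 fit, with DESeq2 1.42.0 as an alternative. A standard error is the log2 fold change over the square root of F. Counting noise was taken as the Poisson variance at each library's depth, and such values cover counting error only. Both steps were tested on simulated data. The labels do not say whether the 2 line 1712 libraries are separate lines, so their spread may be technical. Alternatives were another test, other scalings, no filter, no fold threshold, libraries left out, a replicate block and, for the list, other scales, measures of spread, floors and depth.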

Additional observations from a re-analysis of the deposited data

How the results depend on the processing

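The count of stable genes called was 0 in both comparisons under all 16 alternatives, which include DESeq2, other scalings, scaling by the stable genes themselves, no filter and each library left out. The choice of genes with a small spread over these same libraries leads to such zeros, so nothing is read from them. With 1 line 1712 library left out, its spread was taken from the PgMyb308-like and EV groups. Replicate numbers did not serve as pairs, as same-numbered libraries had correlations of -0.27 to 0.20 in their deviations from the group means, and with a replicate block 0 stable genes were called. The list itself changed more. Only 29 of the 100 genes were chosen again with a mean of at least 500, the only 29 that reach that mean, and 65 with the PgMyb308-like and EV libraries only. Leaving out 1 library gave 64 to 77, with 64 without PgMyb308-like replicate 1 and 66 without EV replicate 2. The other alternatives kept 70 (mean of at least 100) to 98. The CVs of the first 10 genes, recomputed under 12 of the 18 alternatives to the list, ranged from 3.43% to 9.32%, and those of ranks 2 to 6 moved by over 1.5 times under at least 1 of them (library totals, thinning or a library left out). Depth limits the least abundant genes most, as counting noise alone gives a CV of up to 7.09%.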
